A study of Mus musculus with 10 samples.

Results

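Chromatin immunoprecipitation sequencing of RBPJ, the DNA-binding protein of the Notch pathway, was examined at 9 genes of the secreted extracellular matrix: Fn1, Thbs1, Thbs2, Tgfbi, Postn, Fbn1, Fbn2, Tnc and Vcan. A peak was given to a gene when its centre lay in the gene body or in a regulatory domain that reached from 5 kb upstream to 1 kb downstream of the 5′ end and on to the neighbouring genes' domains, by at most 1 Mb. This rule used positions and no measured value, and it took 17 of the 11094 RBPJ peaks, at 8 of the 9 genes, from 21938 protein-coding genes in all. The cells were RD1 brain pericytes of the mouse, untreated and grown in pericyte medium on collagen-coated dishes, and the study's methods describe its brain pericytes as passaged primary cultures from adult Rbpj lox/lox animals. The labels give no genotype and the same lack of treatment for every sample. The 10 samples were 2 each of RBPJ, H3, H3K4me1, H3K4me3 and input, and 8 of them were not analysed here. Both RBPJ samples carried the same list of intervals, which the study had made from the replicates together. The list therefore gave 1 set of positions with no height and no replicate spread, and binomial intervals below cover counting error only. It held no expression values, so the identity of the cells could not be checked against pericyte markers, and a peak gave no direction of regulation.

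Pericytes are mural cells that lie within the basement membrane of capillaries. Matrix glycoproteins are secreted, assemble outside the cell and in many cases hold or release growth factors of the TGF-beta family. Fibronectin (Fn1) forms fibrils on integrins, and the fibrillins (Fbn1, Fbn2) build microfibrils on which latent TGF-beta complexes are stored. Thrombospondin 1 (Thbs1) can activate latent TGF-beta, and its relative thrombospondin 2 (Thbs2) restrains blood vessel growth. Periostin (Postn) and TGF-beta-induced protein (Tgfbi) share FAS1 domains and bind integrins, tenascin C (Tnc) modulates adhesion, and versican (Vcan) is a large proteoglycan that binds hyaluronan. Several of these genes are familiar TGF-beta targets in mesenchymal cells. RBPJ recognises the core hexamer TGGGAA, where it can recruit repressors or, with the Notch intracellular domain, activators.

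DNA from 5 of the peaks is shown because they span the range found: a gene start, a distant upstream cluster, a tandem repeat, the peak richest in core sites and a peak with no core site. All stretches are the plus strand of GRCm38 from 5′ to 3′. Capitals mark the core hexamer, which reads TTCCCA where it lies on the minus strand. In the Thbs1 peak they also mark TGANTCA, the AP-1 motif, and in the Postn peak they mark the palindrome GTCTAGAC, to which Smad proteins bind.
Fn1 peak 1, stretch with a pair of sites, chr1:71651540-71651699: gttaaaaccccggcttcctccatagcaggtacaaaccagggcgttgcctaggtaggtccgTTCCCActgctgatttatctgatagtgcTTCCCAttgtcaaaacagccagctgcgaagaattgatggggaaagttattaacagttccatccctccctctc
Thbs1 peak 3, whole, chr2:117748956-117749216: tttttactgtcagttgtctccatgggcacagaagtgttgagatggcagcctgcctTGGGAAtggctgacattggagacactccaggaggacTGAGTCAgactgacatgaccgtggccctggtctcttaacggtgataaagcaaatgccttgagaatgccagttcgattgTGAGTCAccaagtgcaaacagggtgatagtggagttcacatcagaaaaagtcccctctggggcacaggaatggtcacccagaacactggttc
Thbs2 peak, central part, chr17:14454460-14454699: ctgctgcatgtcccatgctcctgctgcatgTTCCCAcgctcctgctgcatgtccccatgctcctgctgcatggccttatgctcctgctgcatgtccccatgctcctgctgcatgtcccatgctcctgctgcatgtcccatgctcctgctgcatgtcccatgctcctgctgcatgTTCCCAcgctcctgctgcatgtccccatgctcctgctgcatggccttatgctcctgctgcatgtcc
Tgfbi peak, densest stretch, chr13:56553497-56553736: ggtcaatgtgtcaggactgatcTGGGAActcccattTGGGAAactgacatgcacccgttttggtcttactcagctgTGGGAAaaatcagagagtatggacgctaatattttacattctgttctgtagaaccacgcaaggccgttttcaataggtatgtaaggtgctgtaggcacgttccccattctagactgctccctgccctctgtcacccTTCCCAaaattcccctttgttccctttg
Postn peak, whole, chr3:54238916-54239156: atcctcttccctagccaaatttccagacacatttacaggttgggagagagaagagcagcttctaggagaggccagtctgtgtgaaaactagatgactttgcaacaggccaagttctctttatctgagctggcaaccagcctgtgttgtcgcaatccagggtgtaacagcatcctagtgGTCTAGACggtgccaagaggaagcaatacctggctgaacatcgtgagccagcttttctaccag

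Single sites from 3 further peaks are shown on the strand where the hexamer reads TGGGAA, with 10 flanking bases on each side, as the site nearest to the centre of each of these peaks.
Fn1 peak 4, minus strand, chr1:71763768-71763793: atccagacttTGGGAAcaatcacaca
Thbs1 peak 4, plus strand, chr2:117731468-117731493: ggcaacacccTGGGAActcaaactct
Fbn1 peak, minus strand, chr2:125302399-125302424: tgctgtggttTGGGAAaggagataag

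RBPJ peaks were found at 8 of 9 matrix genes, against 46.7% of all protein-coding genes under the same rule. The order turned under narrower rules: 2 of 9 had a peak with basal domains and gene bodies only, against 35% of all genes, and 2 of 9 with each peak given to its single nearest gene, against 35.2%. The matrix genes stood in wide, gene-poor surroundings, with a median length of body and domain of 653 kb against 93.8 kb for all genes. Among the genes whose body and domain spanned at least 500 kb, 61.3% of 2494 had a peak, and 6 of 7 such matrix genes did. The 17 peaks lay in 5.61 Mb, where the density of peaks on the same chromosomes would have placed 23.5. The median was 1 peak per matrix gene, 0 over all genes and 1 over the genes spanning at least 500 kb.

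Within the set the count was uneven. Thbs1 had 6 peaks and Fn1 had 4, Fbn2 had 2, and Thbs2, Tgfbi, Postn, Fbn1 and Vcan had 1 each, while Tnc had none. Chromosome density gave 5.17 peaks for the length at Thbs1 and 3.24 at Fn1, close to what was counted, but 4.01 at Thbs2, 2.55 at Vcan and 2.06 at Postn, where 1 was counted. At Tgfbi, with the shortest stretch of 145 kb, density gave 0.679 and 1 peak was counted. Of all genes, 286 (1.30%) had at least as many peaks as Thbs1.

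**Figure D1:**
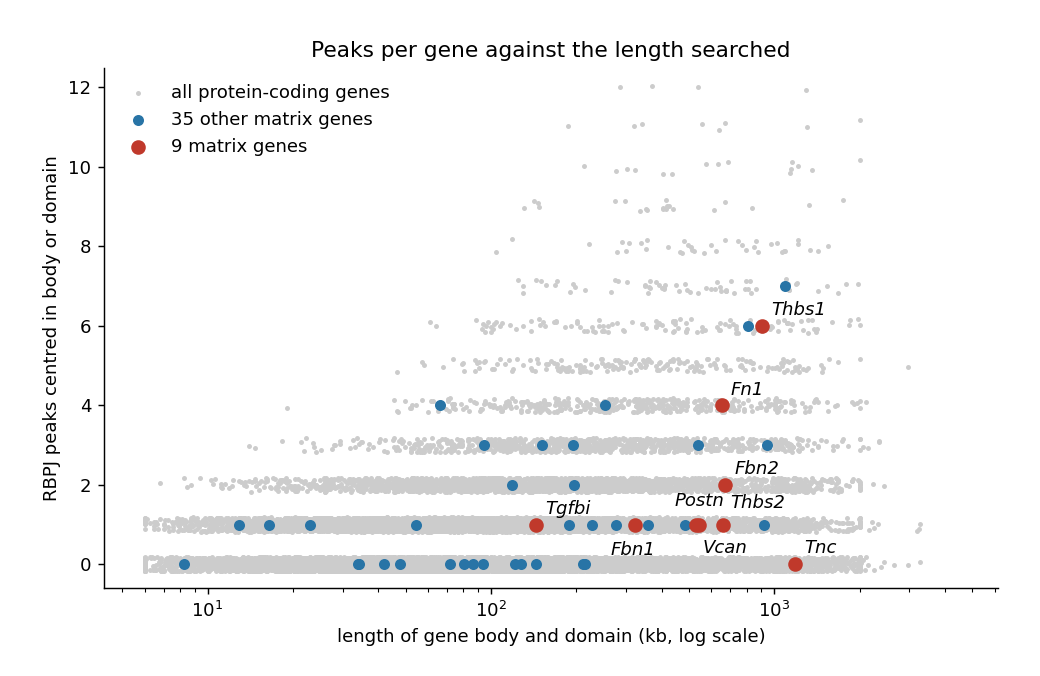
Number of RBPJ peaks per gene (vertical) against the length of gene body and domain in kb (horizontal, log scale) for all protein-coding genes (grey, shifted slightly at random in height), 35 other matrix genes (blue) and the 9 matrix genes (red, named). Thbs1 (6) and Fn1 (4) stand above the rest of the 9 and Tnc, with a long domain, lies at 0. The 15 genes with more than 12 peaks are off the plot.

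Most of the peaks lay far from gene starts. The rule itself leaves out peaks at the starts of neighbouring genes, and these domains are long. Only Fn1 had a peak within 1 kb of its 5′ end, 1 of 9 against 24.9% of all genes. Of the 17 peaks, 1 (5.88%, 95% exact binomial interval 0.149 to 28.7%) was centred within 1 kb of any protein-coding transcript start, against 49.5% of all peaks and 27.6% of the 2891 peaks that the same rule gave to genes spanning at least 500 kb. The median distance to the nearest transcript start was 111 kb, against 34.6 kb for the peaks of those long-domain genes and 24.5 kb for the 5605 peaks of the whole list that were not within 1 kb of a start, called distal here. In all, 15 of 17 peaks (88.2%, 63.6 to 98.5%) were over 50 kb from any such start, which held for 43.4% of the peaks of long-domain genes and 30.9% of the distal peaks. These values describe peaks chosen by position and were not tested. The long-domain class does not cover Tgfbi and Fbn1, whose body and domain span 145 and 324 kb. Peaks were upstream of the gene in 12 cases and downstream of its 5′ end in 5, and 14 were centred outside protein-coding genes. The nearest gene 5′ end was that of the matrix gene itself for 8 peaks, 4 at Fn1 and 4 at Thbs1, and of a neighbour for the other 9. All but 1 of the 17 peaks also lay in the domain of another gene, so for 16 the assignment was shared. Under the rule the domains of neighbouring genes both extend over the space between them, so this sharing largely follows from it. The shares of shared and of nearest-gene peaks over all peaks were not computed.

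**Figure D2:**
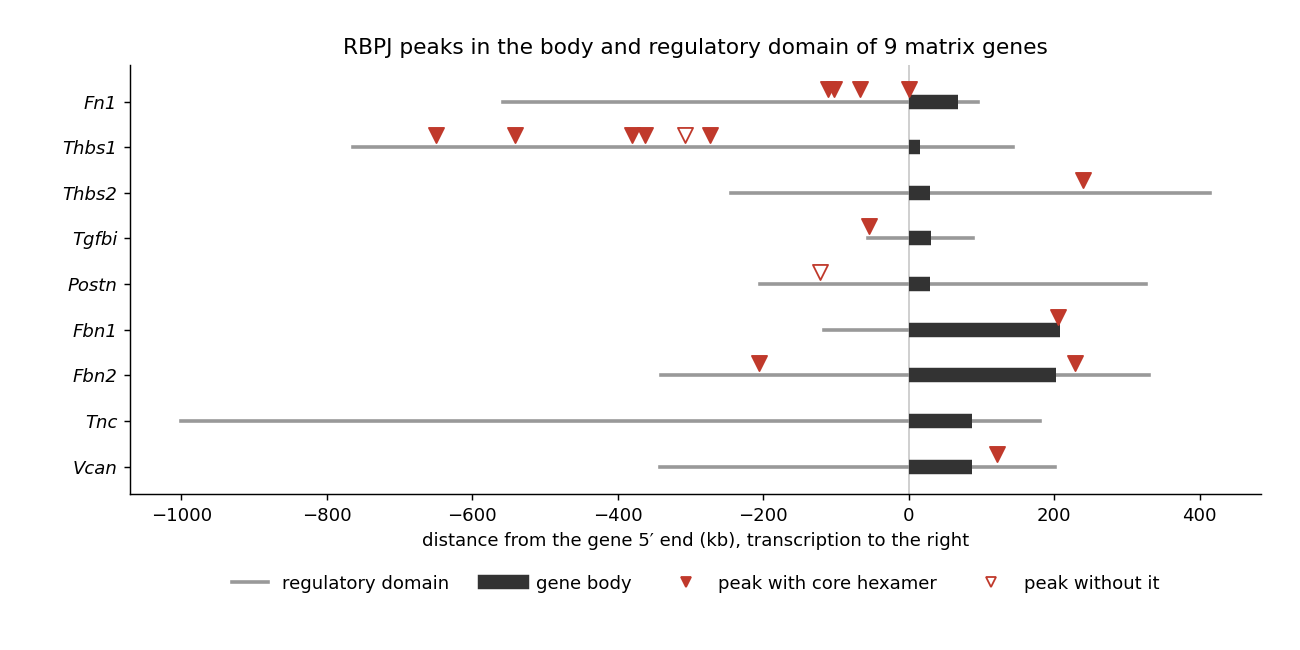
Position of each RBPJ peak (triangles) in the gene body (black bar) and regulatory domain (grey line) of the 9 genes, in kb from the 5′ end with transcription to the right. Filled triangles are peaks that hold the core hexamer and open triangles the 2 that do not. Thbs1 has 6 peaks, all upstream, and the Tnc line carries none.

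Fn1 lies on the minus strand of chromosome 1 with its 5′ end at 71653200. Its peak 1, chr1:71650922-71653571, was 2650 bp wide, spanned the gene start and was centred 954 bp into the gene, in an intron. It held 3 core sites, of which 2 were in a coding exon with 22 bases between them, both on the minus strand, and 1 was upstream of the gene. None of these 3 was within 100 bp of the centre, the nearest being 615.5 bp away. The annotation also places an antisense model, Apol7d, over this peak, and positions alone do not tell which of the transcripts the peak belongs to. A further 3 peaks stood upstream, with no protein-coding gene between them and Fn1.

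Fn1 peak 2, chr1:71719107-71720687, was centred 66.7 kb upstream and was 1581 bp wide. Its 3 core sites included a pair that face each other with 5 bases between them. Fn1 peak 3, chr1:71755444-71755828, was 385 bp wide, 102 kb upstream, with 1 core site. Fn1 peak 4, chr1:71762900-71764585, was 1686 bp wide, 111 kb upstream, with 3 core sites of which the nearest was 38.5 bp from the centre. The 4 Fn1 peaks covered 114 kb from the outer edge of peak 1 to that of peak 4, peaks 3 and 4 lying nearest to each other. Mreg, the next gene, shares peaks 2 to 4 by the rule, but its 5′ end was 449 to 492 kb from them. Of the 9 genes, Fn1 alone had both a peak at its start and others upstream.

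Thbs1, on the plus strand of chromosome 2 with its 5′ end at 118111876, had no peak in its body or close to its start. Its 6 peaks formed a series upstream of the gene, centred at 273, 308, 363, 380, 541 and 650 kb from the 5′ end. Peak 1, chr2:117838456-117839024, was 569 bp wide with 1 core site and overlapped the lincRNA model 4930412B13Rik. Peak 2, chr2:117802605-117804996, was 2392 bp wide, overlapped the lincRNA model Gm28183 and held no core hexamer, although it held 3 copies of the AP-1 motif. Peaks 3 and 4, chr2:117748956-117749216 and chr2:117731254-117731790, were 261 and 537 bp wide, with 1 core site each, at 72.5 and 41.5 bp from the centre.

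The narrowest Thbs1 peak, printed above as peak 3, also held 2 copies of the AP-1 motif, and its core hexamer runs on as TGGGAATG, so that it overlaps CATTCC, the TEAD motif, read on the other strand. This overlap was present at 3 of the 36 core sites in the 17 peaks (8.33%) and at 5.14% of the 16124 core sites in all peaks. Peak 5, chr2:117569058-117571810, and peak 6, chr2:117460456-117462328, were 2753 and 1873 bp wide with 2 core sites each. Peak 6 held a pair of sites, each the core hexamer or its variant TGAGAA, that face each other with 15 bases between them. All 6 peaks also lay in the domain of Rasgrp1, which encodes an activator of Ras. Peaks 1 to 4 were nearer to Thbs1 and peaks 5 and 6 nearer to Rasgrp1, at 227 and 118 kb from its 5′ end.

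Thbs2, on the minus strand of chromosome 17 with its 5′ end at 14694235, had 1 peak, chr17:14454300-14454860, 561 bp wide and 240 kb downstream of the 5′ end. It overlapped the lincRNA model Gm38551, and the nearest protein-coding start, at 175 kb, was that of Smoc2, which encodes another secreted matrix protein. Its 2 core sites had 138 bases between them and the same 10 bases on either flank, since both lie in a tandem repeat. In the central 200 bp, 64.8% of the bases equalled the base 21 positions further on, against 31.7 to 48.4% at the best shift of 10 to 60 bp in the other 16 peaks and a median of 35.1% over all peaks. A match of this size or more was reached by 50 of all peaks (0.451%). The genome's repeat masking marked none of this peak. The study's alignment kept reads with up to 3 placements, and how reads from this stretch were placed among its copies was not tested.

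The Tgfbi peak held more core sites than any other in the set. Tgfbi is on the plus strand of chromosome 13 with its 5′ end at 56609523, and the peak, chr13:56553382-56556242, was 2861 bp wide and centred 54.7 kb upstream. It held 10 core sites, 4 of them within the 240 bases printed above, where 8, 34 and 130 bases separated neighbouring sites. These 4 lay towards 1 edge of the peak, 1100.5 to 1290.5 bp from its centre, and the site nearest to the centre was 92.5 bp away. The other peaks held 0 to 3. Of all peaks, 80 (0.721%) held 10 or more core sites, and among the 443 peaks from 2500 to 3200 bp wide, a range chosen around this width after it was seen, the median was 3 and the Tgfbi peak was the only 1 to reach 10. The nearest gene start, at 6310 bp, was that of Lect2, which encodes a secreted chemotactic protein, and the peak lay near the outer edge of the Tgfbi domain, which ended 56.0 kb upstream.

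Postn and Vcan each had 1 narrow peak. The Postn peak, chr3:54238916-54239156, was 241 bp wide and 122 kb upstream of the 5′ end of Postn at 54361109 on the plus strand of chromosome 3. It lay in an intron of Trpc4, a cation channel gene, 83.0 kb from the start of that gene, and held neither the core hexamer nor the TGAGAA variant. It held the palindrome GTCTAGAC within its central 200 bp, which was so for 15 of all peaks (0.135%). The Vcan peak, chr13:89621383-89621768, was 386 bp wide and 121 kb downstream of the 5′ end at 89742509 on the minus strand, 33.7 kb beyond the 3′ end of the gene. It held 1 core site and 2 AP-1 motifs, and 54.9% of its bases were masked as repeats, the highest share among the 17 peaks. Its nearest gene 5′ end, at 81.8 kb, was that of Hapln1, the link protein that fastens proteoglycans such as versican to hyaluronan. The start of a protein-coding transcript lay nearer, at 56546 bp.

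Fbn1, on the minus strand of chromosome 2 with its 5′ end at 125507993, had its peak near the far end of the gene. The peak, chr2:125302004-125304325, was counted through the gene body, was 2322 bp wide and centred in a coding exon, 205 kb downstream of the 5′ end and 2570 bp before the 3′ end. Its 3 core sites were all in introns and none was within 100 bp of the centre. The nearest gene start was that of Dut, a nucleotide metabolism gene, at 56.0 kb. A peak at chr2:125624347-125625392, 117 kb upstream, was nearer to the start of Fbn1, but its centre fell 757 bp past the domain edge and 244 bp from the start of Cep152.

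The fibrillin paralogue Fbn2, on the minus strand of chromosome 18 with its 5′ end at 58210487, had 2 peaks outside the gene. The upstream peak, chr18:58416645-58416866, was 222 bp wide, the narrowest of the 17, and 206 kb from the 5′ end. Its 1 core site was 3.5 bp from the centre, the most central in the set. The downstream peak, chr18:57981402-57981874, was 473 bp wide and was centred 26985 bp beyond the 3′ end of the gene, with 2 core sites. Their nearest gene starts were those of Slc27a6 (140 kb) and Slc12a2 (103 kb), a fatty acid transporter gene and a cotransporter gene.

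Tnc, on the minus strand of chromosome 4 with its 5′ end at 64047015, was the only matrix gene of the 9 without a peak, although its domain of 1181 kb was the longest. The nearest peak, chr4:63668234-63668771, was 379 kb downstream of the 5′ end and 291 kb beyond the 3′ end of the gene. On the upstream side the next peak was 8.15 Mb away. Chromosome 4 carried 158 peaks, or 1.04 per Mb, against 3.87 to 6.10 per Mb on the other chromosomes of the set, and at that density the Tnc domain would hold 1.23 peaks. The count of 0 at Tnc was 1.23 below that value, and Thbs2, with 1 peak, lay further below its own value of 4.01.

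The domain rule left out peaks in the start regions of the genes that bound a domain. Whether at a bounding gene or further away, the first peak outside on the upstream side was within 1 kb of another gene's 5′ end for all 9 genes, and on the downstream side for 5 of 9. Of all peaks, 49.5% were within 1 kb of a protein-coding transcript start. The same count of first peaks outside was not made over all genes, so it marks no trait of these 9. The distance past the upstream edge ran from 689 bp at Fn1 and 757 bp at Fbn1 to 418 kb at Tgfbi, 694 kb at Postn and 7.15 Mb at Tnc. At Fn1 these were peaks at Mreg and Atic. At Tgfbi the first downstream peak outside lay 305 bp from the start of Smad5, which encodes a transducer of BMP signals, 93.8 kb from the start of Tgfbi. The peak nearest to the start of Thbs1 on either side, chr2:118287666-118287874, was 176 kb downstream and fell outside its domain.

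The median width was 569 bp, against 690 bp for all peaks and 523 bp for distal peaks, and the widths ran from 222 to 2861 bp. With limits set after the widths were seen, 9 peaks were under 600 bp, 8 were over 1500 bp and none lay between, whereas 56.1%, 24.2% and 19.7% of distal peaks fell in these classes. Those over 1500 bp were 3 at Fn1, 3 at Thbs1 and those at Tgfbi and Fbn1. The median GC content was 44.9%, against 55.8% for all peaks and 49.6% for distal peaks, with the Thbs2 repeat highest at 59.2% and Thbs1 peak 2 lowest at 37.1%.

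Core hexamers were counted on both strands. In the whole peak, 15 of 17 held TGGGAA (88.2%, 63.6 to 98.5%), against 64.9% of all peaks and 71.6% of distal peaks. Summed over the peaks there were 36 sites, 1.65 per kb, against 1.25 per kb in all peaks and 1.43 per kb in distal peaks. Of these sites 10 were in the Tgfbi peak, and the other 16 peaks held 1.38 per kb. In the central 200 bp the share was 35.3% (6 of 17, 14.2 to 61.7%), against 25.8% of all peaks and 35.3% of distal peaks. Of the 36 sites, 7 (19.4%) were within 100 bp of a centre, against 21.6% of the sites in all peaks and 24.9% of those in distal peaks. The central windows made up 15.6% of the bases of the 17 peaks and 16.2% of those of the distal peaks.

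**Figure D3:**
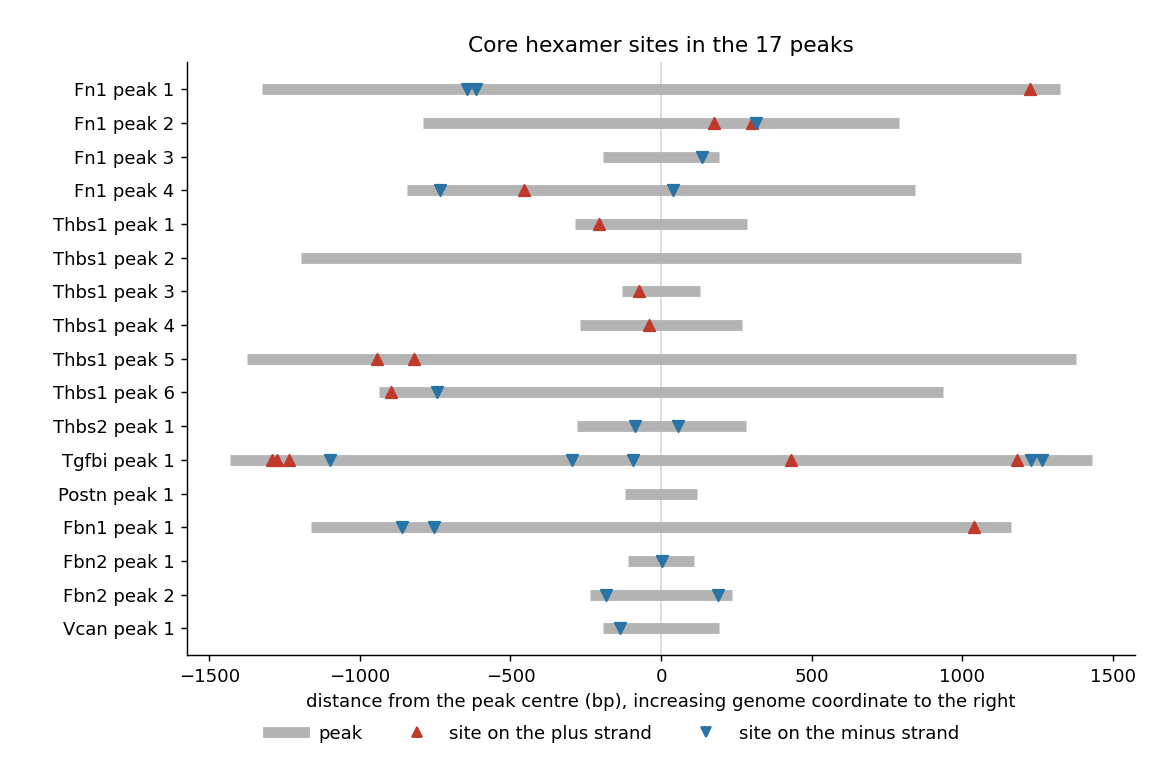
Positions of the 36 core hexamer sites in the 17 peaks, in bp from the peak centre with increasing genome coordinate to the right. Grey bars are the peaks to scale, red triangles sites on the plus strand and blue triangles sites on the minus strand. The Tgfbi peak carries 10 sites, Thbs1 peak 2 and the Postn peak none, and 7 of the 36 sites are within 100 bp of a centre.

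The longer word GTGGGAA, which contains the core, was in the central 200 bp of 1 of 17 peaks (5.88%), the Thbs2 repeat, against 12.9% of distal peaks. The variant TGAGAA was there in 2 of 17 (11.8%), Thbs1 peaks 3 and 4, against 20.3% of distal peaks. The AP-1 motif was in the central 200 bp of 6 of 17 (35.3%, 14.2 to 61.7%), against 10.4% of all peaks and 17.7% of distal peaks. These were Fn1 peaks 3 and 4, Thbs1 peaks 3 and 5, the upstream Fbn2 peak and the Vcan peak. The TEAD motif was in 4 of 17 (23.5%, 6.81 to 49.9%), against 16.7% of distal peaks, and the Runx motif TGTGGT was in 2 of 17 (11.8%), against 17.5%. The palindrome was in 1 of 17, at Postn. The intervals count each peak as independent, although 10 of the 17 lie at Fn1 and Thbs1, and these shares were not tested.

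**Figure D4:**
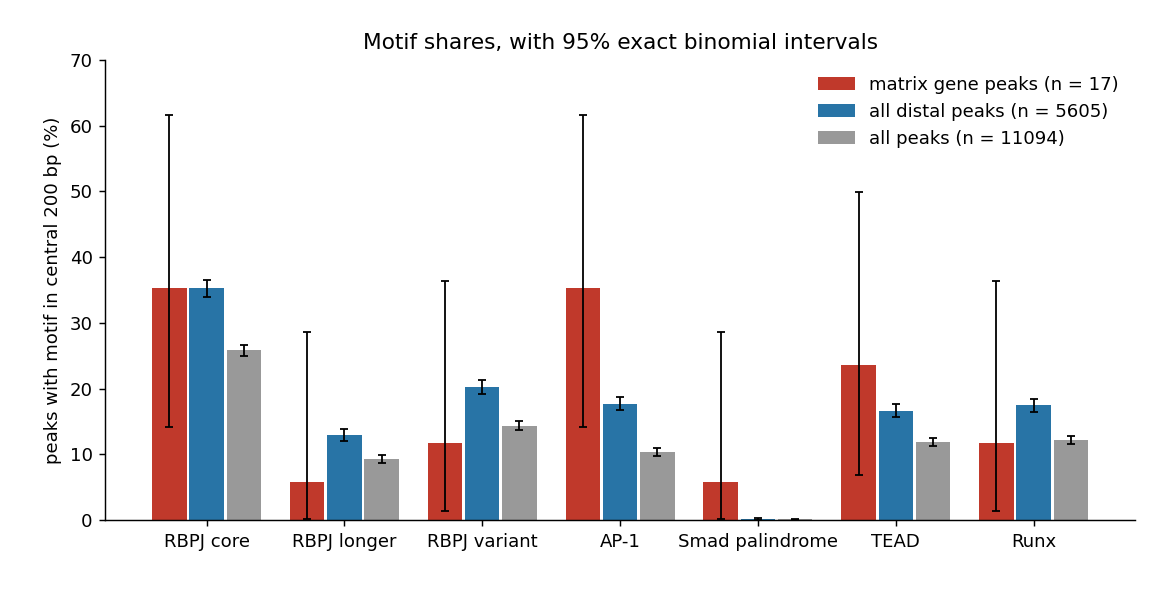
Share of peaks, in percent, with each of 7 motifs in the central 200 bp, for the 17 matrix gene peaks (red), all distal peaks (blue) and all peaks (grey), with 95% exact binomial intervals as error bars. The core shares of matrix gene and distal peaks are both 35.3%, and the AP-1 share is 35.3% against 17.7% with a wide interval.

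Promoter sequences from RefSeq, on GRCm38 and from 250 bases before to 50 after each start, were at hand for 6 of the 9 genes. The core hexamer was in the promoters of Fbn1, Tnc and Vcan, each time as GTGGGAA, and in none of those of Thbs2, Tgfbi and Postn. It was in 25.6% of all 32851 promoters, and GTGGGAA in 6.38%. None of the 6 genes, with or without the hexamer in the promoter, had a peak within 1 kb of the 5′ end.

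Other matrix genes gave a wider view. Of 35 further secreted matrix glycoproteins and proteoglycans, 21 had a peak (60%, against 46.7% of all genes) and 14 had none, with a median body and domain of 128 kb. Among the 21, Hapln1 and Smoc2 were counted through the same intervals as Vcan and Thbs2. Among the relatives of the 9 genes, Thbs3 had a peak 153 bp upstream of its 5′ end, Thbs4 had 1 at 140 kb and Comp had none, so 4 of 5 thrombospondins had a peak. Of the tenascins, Tnr had 6 peaks and Tnxb 3, while Tnn, like Tnc, had none. Of the hyaluronan-binding proteoglycans, Bcan had 1 peak at 22.9 kb, and Acan and Ncan had none. Of the 14 without a peak, 4 were on chromosomes 4, 7 or X, and Acan was on chromosome 7, which carried 1.03 peaks per Mb. A peak within 1 kb of the 5′ end was found at 6 of the 35, against 24.9% of all genes: Thbs3, Fbln1, Efemp1, Efemp2, Matn2 and Ecm1.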

How the data were processed

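Peak lists of RBPJ were taken as deposited by the authors. Per the study's methods, reads were aligned to GRCm38 with bowtie, duplicates were removed, peaks were called per replicate with MACS2 and PeakRanger, calls within 2 kb were merged, and regions with at least 3 overlapping calls and outside the blacklist were kept. The submitters' processing notes also name FastQC, Picard, SAMtools and deepTools. Both RBPJ files were byte-identical, with 11094 intervals, and were counted as 1 list. Depth per sample was not analysed here.

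Peak centres were assigned to GENCODE M21 protein-coding genes by body and domain (5 kb upstream, 1 kb downstream, extension up to 1 Mb). Proximal meant within 1 kb of a protein-coding transcript start. Motifs were counted on both strands in the central 200 bp, the lists giving no summit. The named genes were all members with every peak, the genes around those peaks, paralogues, and other matrix genes with a peak within 1 kb. The members and lists were chosen with earlier results of these data known, so no test was run over them. Counts stand beside those over all genes or peaks, and shares carry exact (Clopper-Pearson) 95% binomial intervals. Domain assignment and motif counts were tested on simulated data. Alternatives were basal domains with gene body, a 500 kb extension, the single nearest gene, overlap by 1 bp, peaks of at least 500 bp, other proximal limits and motif windows, and each replicate left out. Python 3.11.15, pandas 2.3.3, scipy 1.17.1 and pysam 0.24.0 were used.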

Additional observations from a re-analysis of the deposited data

How the results depend on the processing

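The counts depended on the reach of the domain, on how shared peaks were assigned and on peak width. With an extension of at most 500 kb, 8 matrix genes had a peak, with 15 peaks in all. The share of matrix genes with a peak fell below that of all genes under 2 settings. With basal domains and gene bodies only, 2 of 9 had a peak (against 35% of all genes), with 2 peaks in all, a proximal share of 50.0%, a median width of 2486 bp and TGGGAA in the central window of 0% of them. With each peak given to its single nearest gene, 2 of 9 had a peak (against 35.2% of all genes), with 8 peaks in all. With peaks of at least 500 bp, 5 matrix genes had a peak (34.9% of all genes), with 11 peaks, none of them at Postn, Fbn2 or Vcan. Within 500 bp of a transcript start the proximal share was 0%. Over the whole peak the TGGGAA share was 88.2%, and GTGGGAA in the central 200 bp gave 5.88%. Other settings moved values by over 1.5 times while staying inside the 95% binomial interval of the share or of the median. The median width was 999 bp with overlap by 1 bp, 1075 bp with the single nearest gene and 1873 bp with peaks of at least 500 bp. The proximal share was 11.1%, 12.5% and 9.09% under the same 3 settings, and the TGGGAA share was 17.6% in the central 100 bp. The other matrix genes with a peak numbered 14 to 23 over these settings.

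Leaving out either replicate gave again 8 matrix genes with a peak, 17 peaks, a proximal share of 5.88%, a median width of 569 bp, a TGGGAA share of 35.3% and 21 other matrix genes with a peak, since both files hold the same intervals. These equal values therefore say nothing about replicate spread. No paired analysis was possible because the intervals of both samples are the same and nothing here sets groups against each other. With 17 peaks, shares are known only within wide intervals, and without peak heights weak and strong peaks count alike.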
